A study of Homo sapiens with 2 samples.

Results

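The genes described here build and control the NF-kappaB pathway: NFKB1, RELA, REL, NFKB2, RELB, NFKBIA, TNFAIP3, BIRC3, TRAF3 and MAP3K14. Chromatin accessibility around them was read from ATAC-seq, which marks open DNA by where a transposase can cut, in the cell line Z-138. This line grew from a human mantle cell lymphoma, a tumour of mature B cells. The control library came from cells with a control shRNA and the knockdown library from cells with an shRNA against SMARCA4, the ATPase that powers many SWI/SNF complexes as they shift nucleosomes. Each group is 1 library of 1 cell line, both were grown with doxycycline, and the labels name neither ibrutinib nor venetoclax for them. Peak names in both lists contain the term DMSO, a common solvent control. The members are the called regions that overlap 1 of 10 fixed spans of the hg19 genome, 910 kb in all, each laid around 1 gene by position alone. The spans held 35 of the 55124 control regions and 28 of the 41540 knockdown regions.

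NF-kappaB factors are dimers of REL-family proteins that bind short DNA sites called kB sites. In the classical branch, dimers of p50 (from NFKB1) with RELA or REL are held in the cytoplasm by NFKBIA, and signals such as the B-cell receptor acting through BTK release them. In the alternative branch, the kinase MAP3K14 (NIK) drives processing of NFKB2 to p52, which pairs with RELB, while TRAF3 and the ligase BIRC3 keep MAP3K14 low. Lesions that free the alternative branch are known in mantle cell lymphoma, where they are of interest for resistance to BTK inhibition.

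Several of these genes are known as targets of the pathway, so their promoters are shown first. Promoter windows of 300 bases, 250 before to 50 after each RefSeq start (build GRCh38.p14), were searched on both strands for a kB motif of 10 bases: GGG, any 3 bases, then TTCC. A stricter subset has GGG, any 2 bases, then TTTCC. Of the 9 genes matched in the promoter table (all but RELB), 7 held the stricter motif in at least 1 window: NFKB1, NFKB2, REL, NFKBIA, TNFAIP3, BIRC3 and TRAF3. Over all 27305 genes of the table, 2.33% held the stricter motif and 7.83% the wider one. By window, the stricter motif was in 8 of the 13 windows of these genes and in 1.91% of all 35116. No match was found in the windows of RELA and MAP3K14. The bases before the start are printed below for 5 genes, in each from the window that holds the stricter motif, and 30 bases around the matches for NFKB2 (its last start) and TNFAIP3. All are written 5′ to 3′ on the strand of the gene, with the motif in capitals, and a match on the opposite strand therefore begins with GGAA. The window and strand are chr4:102501109-102501358 plus for NFKB1, chr2:60881324-60881573 plus for REL, chr14:35404750-35404999 minus for NFKBIA, chr11:102317234-102317483 plus for BIRC3 and chr14:102777199-102777448 plus for TRAF3. The shorter stretches are chr10:102395674-102395703 plus for NFKB2 and chr6:137867188-137867217 plus for TNFAIP3.
NFKB1: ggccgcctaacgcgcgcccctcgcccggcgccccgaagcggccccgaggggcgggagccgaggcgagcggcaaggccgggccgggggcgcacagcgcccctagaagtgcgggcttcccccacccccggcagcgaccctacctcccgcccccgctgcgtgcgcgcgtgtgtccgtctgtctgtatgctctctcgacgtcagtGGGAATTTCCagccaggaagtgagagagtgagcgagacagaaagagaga
REL: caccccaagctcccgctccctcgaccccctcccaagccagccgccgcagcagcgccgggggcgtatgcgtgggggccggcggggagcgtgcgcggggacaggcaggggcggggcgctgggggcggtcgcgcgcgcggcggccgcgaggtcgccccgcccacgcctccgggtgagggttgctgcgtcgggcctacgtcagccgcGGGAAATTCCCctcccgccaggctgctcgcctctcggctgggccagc
NFKBIA: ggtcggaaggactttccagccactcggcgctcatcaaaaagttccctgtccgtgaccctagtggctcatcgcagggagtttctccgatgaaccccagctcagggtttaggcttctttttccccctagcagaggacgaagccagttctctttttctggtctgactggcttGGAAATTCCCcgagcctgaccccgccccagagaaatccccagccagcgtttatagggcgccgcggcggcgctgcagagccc
BIRC3: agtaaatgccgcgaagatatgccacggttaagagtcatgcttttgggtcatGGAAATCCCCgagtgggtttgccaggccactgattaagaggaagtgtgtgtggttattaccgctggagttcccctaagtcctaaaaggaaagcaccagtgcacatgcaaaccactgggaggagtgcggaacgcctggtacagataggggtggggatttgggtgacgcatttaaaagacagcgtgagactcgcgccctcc
TRAF3: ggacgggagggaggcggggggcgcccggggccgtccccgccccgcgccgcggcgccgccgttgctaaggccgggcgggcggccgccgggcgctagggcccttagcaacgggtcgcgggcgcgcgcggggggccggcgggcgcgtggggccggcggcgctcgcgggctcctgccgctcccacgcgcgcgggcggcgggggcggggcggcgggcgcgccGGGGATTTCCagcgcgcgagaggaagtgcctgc
NFKB2: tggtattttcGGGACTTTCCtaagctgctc
TNFAIP3: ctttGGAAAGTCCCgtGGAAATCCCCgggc

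The motif lay close to the start in most of them, counting the base before the start as -1. It began at base -49 in NFKB1, -81 in NFKBIA, -33 in TRAF3 and -199 in BIRC3, and at -67 and -55 in TNFAIP3. In REL a match on either strand shared 9 bases, from -47 and from -46. NFKB2 had a match at -21 of its last start, and at its middle start a strict match at -78 (GGGGCTTTCC) and a wider one at -106 (GGAATTCCCC). A match is a description of letters and not a measured binding site. The windows are GRCh38 and the accessible regions hg19, and no annotation of hg19 was used here, so whether a region lies over a promoter, an intron or a neighbouring gene was not determined.

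**Figure D1:**
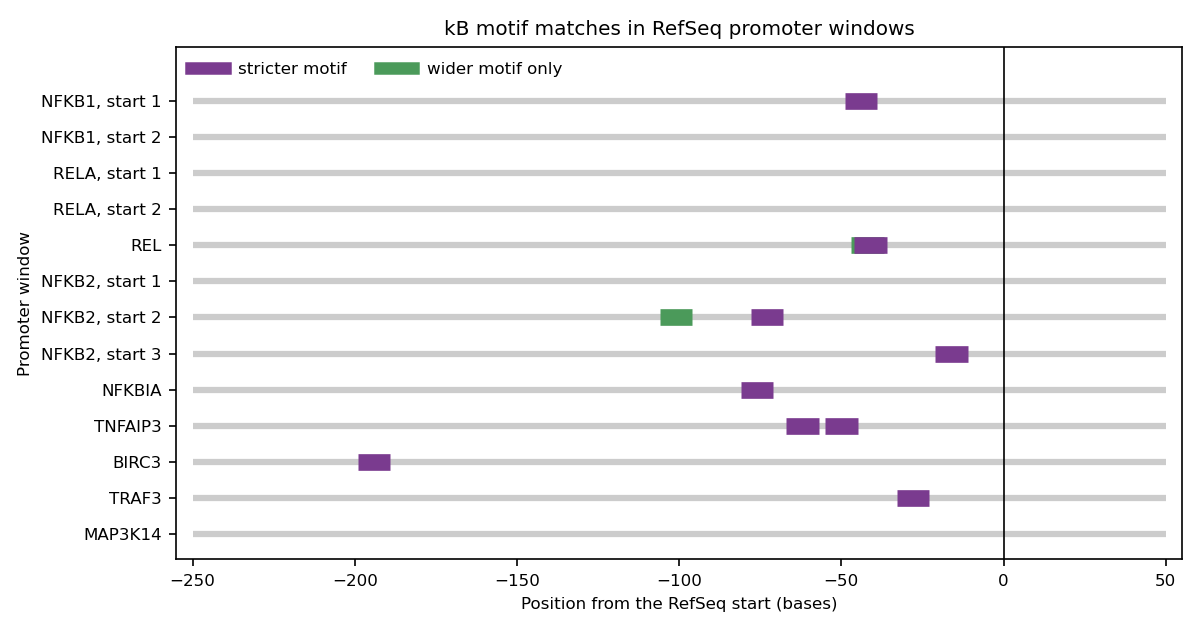
Positions of kB motif matches in the RefSeq promoter windows of 9 genes, in bases from each start (x axis), 1 line per window. Purple marks the stricter motif and green a match to the wider motif only; all matches but that of BIRC3 begin at base -106 or nearer to the start, and RELA and MAP3K14 have none.

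Accessible regions were present in every span in both libraries. The strongest control region of every span, by fold or by stacked reads, had a knockdown partner, that is, a region overlapping it by at least 1 bp. Altogether 23 of 35 control regions had a partner, or 65.7% (exact Clopper-Pearson 95% interval 47.8 to 80.9%), and 12 had none. Over the genome 39.5% of control regions had none. In the opposite direction 23 of 28 knockdown regions had a control partner, or 82.1% (63.1 to 93.9%), and 5 had none, where the genome had 20.6% without. Both genome-wide shares lie inside the intervals of the members. Over the genome, regions without a partner were the weaker ones, with a median of 6 stacked reads against 11 for those with one in the control and 7 against 12 in the knockdown. The share given by the fold enrichment of the member regions alone was 59.4% for the control and 77.5% for the knockdown list, and both lie inside the intervals too. Intervals cover counting error only, and with 1 library per group the spread between cultures is unknown and no test between the groups can be made. Neither share was thus separable from the rest of the genome.

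The difference in number came mostly from 1 span. RELA had 6 control and 2 knockdown regions, or 33.3% (3.29 to 186%), and 4 of the 12 control regions without a partner. Its share of control regions with a partner was 33.3% (4.33 to 77.7%), an interval that includes the 60.5% of the genome. The interval of its count ratio likewise includes the genome's, so RELA by itself was not separable from the genome. Without RELA the spans held 29 control and 26 knockdown regions, or 89.7% (50.7 to 158%), against 80.0% (46.9 to 135%) with it and 75.4% over the genome. The covered length was 8614 bp in the control list and 7529 bp, or 87.4% of that, in the knockdown list, and 92.0% without RELA. This span was singled out after its values were seen.

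**Figure D2:**
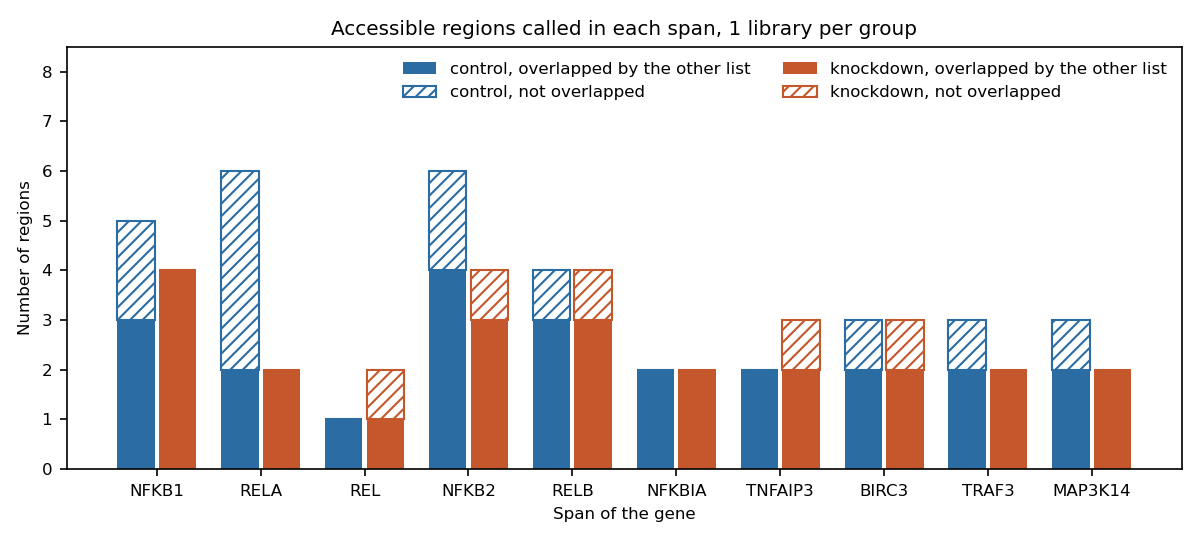
Number of accessible regions in each span (y axis), for the control (blue) and knockdown library (orange). Filled bars are regions overlapped by the other list and hatched bars those that were not; RELA has 4 of 6 control regions without a partner, and NFKBIA has none without.

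Strength was read in 3 ways. The deposited fold is the authors' value for a peak against the background of its own list, and is given with its percentile there. The summit pileup, a count of reads (or fragments) piled on the summit, was recovered from the deposited fold and p-value. For a peak whose background exceeded the lowest level of its list, the same calculation gave the number of reads in the surrounding 10 kb. The knockdown library was the deeper one, with an estimated 9.76 M reads or fragments against 6.89 M in the control under an assumed genome size of 2.7 Gb. If that estimate holds, at equal accessibility its pileups would be 1.34 times and its 10 kb reads 1.42 times those of the control. Depth-scaled log2 ratios below are knockdown over control after division by these factors. The factors come from the lowest background of each list, and an error in them would shift all ratios of a measure by the same amount.

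At the 23 pairs of overlapping regions the depth-scaled log2 ratio of summit pileup had a median of -0.16, with a range from -0.72 to 1.05. Over all 33358 pairs of the genome the median was -0.25 (interquartile range -0.62 to 0.08). A knockdown pileup at least 1.5 times higher was seen in 1 member pair (4.71% of all pairs) and one at least 1.5 times lower in 2 (26.5% of all pairs). The higher one, the pair at 1.05, is in NFKB2 and compares summits 297 bp apart. The exact interval of the ratio included 0 in all 23 pairs, where it lay above 0 in 0.633% and below 0 in 6.06% of all pairs. Reads in the surrounding 10 kb are more numerous and give narrower intervals. Their median log2 ratio was -0.05 over 22 pairs, from -0.58 to 0.58, against -0.14 over 27933 pairs of the genome. The measure leaves out pairs with a background at the lowest level of either list, among the members the third pair of RELB. That pair had 29 control and at most 36.2 knockdown reads, a log2 ratio of at most -0.18, and with it at that bound the median was still -0.05. None of the 22 was 1.5 times higher or lower, against 0.820% and 10.2% of all pairs. The extreme pairs, at -0.58 and 0.58, lay only just short of that limit. The interval lay below 0 in 3 of the 22 pairs, where 16.6% of all pairs did so, and above 0 in 0, where 1.33% did. These 3 are both pairs of NFKBIA, which share their reads, and 1 of TRAF3. Summits and windows less than 10 kb apart count some of the same reads, and the 22 pairs reduce to 17 when only 1 per 10 kb is kept.

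**Figure D3:**
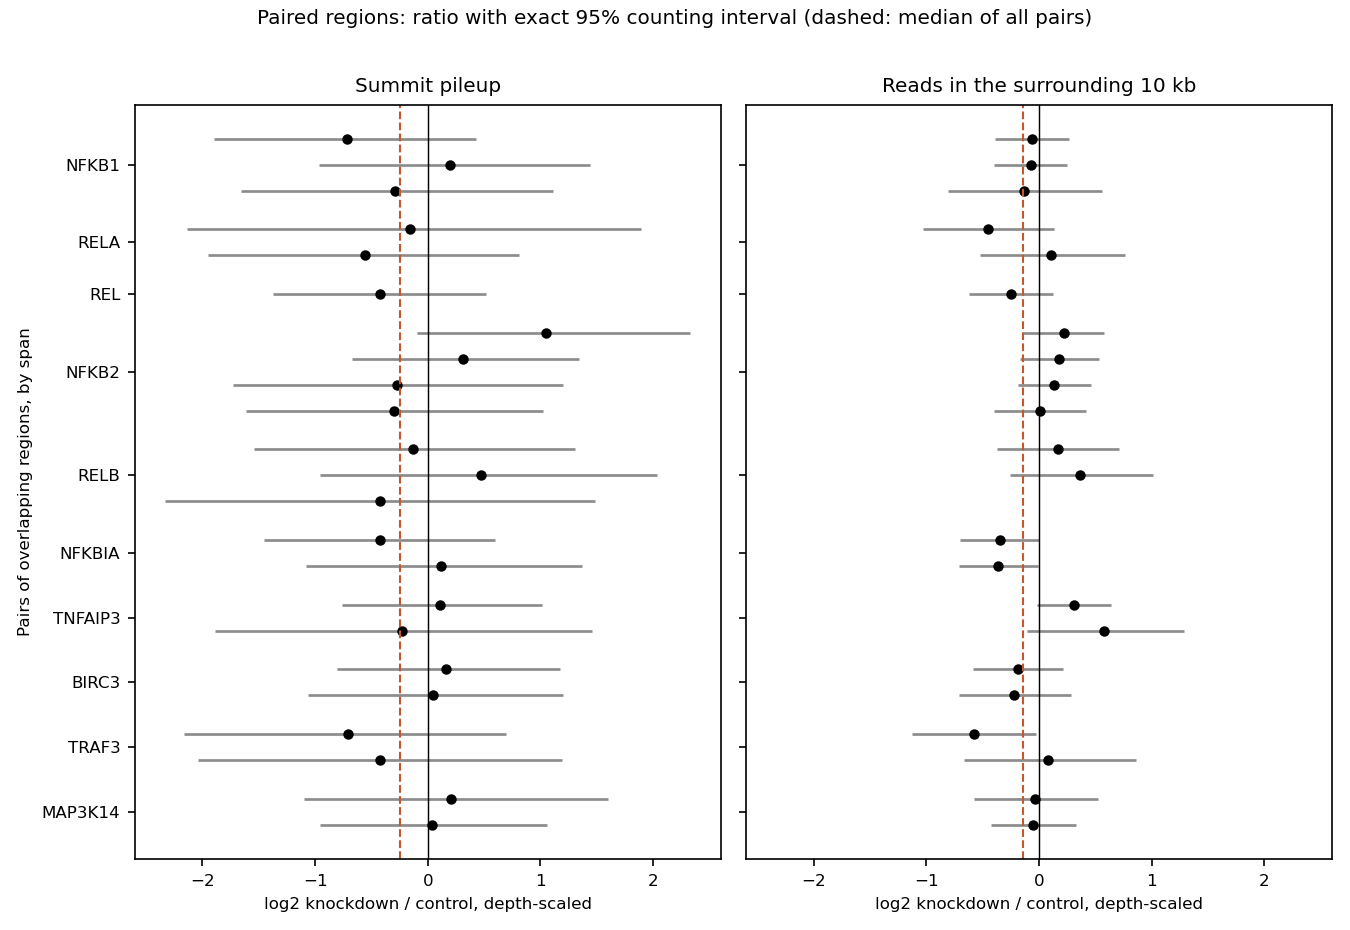
Depth-scaled log2 ratio, knockdown over control, of the summit pileup (left) and of the reads in the surrounding 10 kb (right) for each pair of overlapping regions, grouped by span. Bars are exact 95% counting intervals and dashed lines the medians of all pairs, -0.25 and -0.14; every interval on the left includes 0.

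NFKB1, the source of p50, showed a cluster of regions whose outline differed between the libraries. The control list had a region of 411 bp at chr4:103422406-103422816 with 16 stacked reads and a fold of 7.43. The knockdown list had a pair of shorter regions there, of 167 and 120 bp, with 13 and 8 reads. It was the only member region split in this way, which was the case for 1.43% of control regions in the genome. Next to it, chr4:103422890-103423056 had 11 reads in the control and its partner 17 in the knockdown. The log2 ratios of these neighbours went in opposite directions, -0.72 (-1.90 to 0.43) and 0.20 (-0.97 to 1.44). The 10 kb around them held 137 to 139 control and 186 to 187 knockdown reads, a log2 ratio of -0.06 (-0.39 to 0.27) for the first. The cluster as a whole thus had close to the reads that depth gives.

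On the flank of that cluster the control list had a further region, chr4:103422053-103422153, with 13 stacked reads and a fold of 6.09, and no knockdown partner. The nearest knockdown region was 221 bp away. Scaled to the knockdown depth its summit corresponds to 17.4 reads, where about 8 would have entered that list at the scaled background. In the genome 100% of control regions without a partner reached such a limit, so reaching it does not set this region apart. About 119 kb from the cluster, chr4:103541847-103541984 had 10 reads in the control and its partner 11 in the knockdown, with the highest fold of the span in both lists (8.34 and 8.62). A control region of 94 bp at chr4:103546870-103546963, with 6 reads, had no partner within 4.85 kb.

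RELA encodes the main activating subunit of the classical branch, and its span had the largest share of control regions without a partner. With 6 control regions that share was not separable from the 39.5% of the genome. The strongest control region, chr11:65430375-65430679, had 11 stacked reads and a fold of 8.97. Its knockdown partner was wider, 542 against 305 bp, with 10 reads and a fold of 7.39, and the log2 ratio was -0.56 (-1.95 to 0.81). The reads of the 10 kb around it gave 0.11 (-0.52 to 0.76), so neither measure separates the libraries. At the other end of the span, chr11:65405510-65405683 had 5 reads in the control and its partner 6 in the knockdown.

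Between these lay the 4 control regions that no knockdown region overlapped. Those at chr11:65418064-65418239, chr11:65419996-65420173 and chr11:65420403-65420597 had 9, 8 and 7 stacked reads, folds of 6.67, 5.93 and 5.24, and no knockdown region within 9.60 kb. The one at chr11:65407153-65407393 had 6 reads and its nearest knockdown region at 1.41 kb. Scaled to the knockdown depth the 4 summits correspond to 12.1, 10.7, 9.39 and 8.05 reads, and 5 would have sufficed there at the scaled background. Such a limit was reached by 100% of control regions without a partner in the genome, so reaching it does not set these apart. The 4 RELA regions are of low to middling strength, between the 19.5th and 53.7th percentile of fold in the control list. The protein-coding neighbours of RELA in the GRCh38 gene table are SIPA1 and KAT5, so these regions need not belong to RELA.

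REL, the subunit c-Rel that B cells use in activation, had the region of highest fold among all control members. It stood at chr2:61108428-61108974 with 21 stacked reads, a fold of 10.6 (84.2nd percentile) and a width of 547 bp. The knockdown partner of 503 bp also had 21 reads, with a fold of 9.91. Equal pileups at unequal depth give a log2 ratio of -0.42 (-1.37 to 0.52), and the 10 kb reads, 115 and 137, gave -0.25 (-0.62 to 0.12). This was the only control region of the 100 kb span, with the next one of that list 111 kb away. The knockdown list added a region of 89 bp, chr2:61108286-61108374, with 11 reads, 53 bp from the control region.

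NFKB2, the source of p100 and p52 in the alternative branch, had its strongest region merged in the knockdown. The control list held chr10:104153770-104153988 with 9 stacked reads and chr10:104154076-104154432 with 15. In the knockdown list 1 region of 660 bp, chr10:104153778-104154437, covered both, with 25 reads and a fold of 10.1 against 7.83 for the stronger control region. It was the widest of all member regions, and the only one that joined control regions (2.73% of knockdown regions in the genome did). The log2 ratio was 0.31 (-0.67 to 1.34) for the stronger control region and 1.05 (-0.10 to 2.33) for the weaker one, which is measured against a summit 297 bp away. The 10 kb reads, 111 and 178 for the stronger one, gave 0.18 (-0.17 to 0.53).

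The other NFKB2 regions were weaker and more alike. At chr10:104155392-104155485 there were 9 control and 10 knockdown reads, and at chr10:104159302-104159487 there were 11 and 12, with log2 ratios of -0.27 and -0.30. Control regions at chr10:104168883-104169087 and chr10:104172949-104173042, each with 6 reads, had no partner, but a knockdown region with 5 reads began 72 bp after the former. PSD is the next protein-coding gene after NFKB2 in the gene table.

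RELB, the partner of p52, had 4 regions in each list and 3 pairs. Its strongest control region, chr19:45505161-45505557, had 9 stacked reads and a fold of 6.85, and the knockdown partner 11 reads and 7.08. In the next pair the order of strength changed. At chr19:45519737-45519833 the control had 7 reads in 97 bp, and the knockdown region was 334 bp wide with 13 reads and a fold of 9.02, the highest of the span. The log2 ratio was 0.47 (-0.96 to 2.03), and the 10 kb reads, 34 and 62, gave 0.36 (-0.26 to 1.01). Both intervals include 0. The third pair, at chr19:45542210-45542502, had 6 reads in either list. A control region at chr19:45555622-45555776 with 5 reads and a knockdown region at chr19:45504630-45504718 with 6 had no partner. The latter lay 442 bp from the nearest control region.

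NFKBIA encodes the inhibitor IkB-alpha, itself a classical target, and both of its control regions had a knockdown partner. The wider one, chr14:35873044-35873459, had 18 stacked reads in either library, with widths of 416 and 419 bp and folds of 8.37 and 8.14. The second, chr14:35873897-35874109, had 11 and 16 reads. The outline of the wider region was thus nearly the same in both libraries. The second was shifted, and its partner of 232 bp overlapped 68.1% of the 213 bp control region. The balance of the summits differed in read number, but the intervals of the ratios overlap widely and do not separate them. The log2 ratio was -0.42 (-1.45 to 0.60) for the wider and 0.12 (-1.08 to 1.37) for the second. The surrounding 10 kb held 135 control and 150 knockdown reads, a log2 ratio of -0.35 with an interval from -0.70 to just below 0. The knockdown thus had somewhat fewer reads here than the estimated depth would give, but 16.6% of all pairs also had an interval below 0. The genome-wide median of -0.14 lies inside the interval, so NFKBIA was not separable from the genome in this measure.

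TNFAIP3 encodes A20, an enzyme that edits ubiquitin chains and shuts classical signalling off. Its region at chr6:138188151-138188521 had 20 stacked reads and a fold of 9.83 in the control, and the partner had 29 reads, the most of any member, and a fold of 10.4. The log2 ratio of 0.11 (-0.76 to 1.01) shows no separation at the summit. The 10 kb around it held 121 control and 212 knockdown reads, a log2 ratio of 0.31 (-0.02 to 0.64). At the second region, chr6:138202395-138202692, these reads were 27 and 57 and the log2 ratio 0.58 (-0.11 to 1.29), the highest of the 22 pairs, although the summits had 7 and 8 reads and the knockdown region was narrower, 106 against 298 bp. TNFAIP3 thus had the opposite sign to NFKBIA in this measure, with intervals that include 0. Both intervals lie above the genome-wide median of -0.14, which the intervals of NFKBIA and TRAF3 include. The share of all pairs with such an interval was not counted, and the difference between the genes was not tested. The knockdown list alone held chr6:138225778-138225876, with 8 reads and a fold of 5.83 and the nearest control region 7.06 kb away. That is the knockdown-only member of highest fold, and the only one farther than 500 bp from a control region.

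BIRC3 encodes a ubiquitin ligase that restrains MAP3K14, and its span held the knockdown member of highest fold. The control region chr11:102187939-102188308 had 16 stacked reads and a fold of 8.94. Its knockdown partner, chr11:102188047-102188278, had 24 reads and a fold of 12.1. Scaled by depth the summit ratio was only 0.16 on the log2 scale (-0.81 to 1.17), and the 10 kb reads, 96 and 119, gave -0.19 (-0.59 to 0.21). Neither ratio was separable from 0. A knockdown-only region of 117 bp with 10 reads lay 80 bp beyond the control region.

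A second strong pair, whose knockdown region stood 29.1 kb from the next of that list, was at chr11:102217781-102218219, with 13 control and 18 knockdown reads and a log2 ratio of 0.05 (-1.06 to 1.20). BIRC2, which encodes a related ligase, is the next protein-coding gene after BIRC3 in the gene table. The control list alone held chr11:102164875-102164995, with 7 reads and a fold of 6.45.

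TRAF3 is the adaptor that brings MAP3K14 to its ligases. Its span had the smallest covered length in the knockdown relative to the control, 232 against 549 bp or 42.3%. This rests on only 3 control and 2 knockdown regions. The strongest control region of the span, chr14:103243756-103243938, had 11 stacked reads and a fold of 7.72. Its partner had 9 reads, a fold of 6.67 and a width of 105 against 183 bp. The log2 ratio was -0.71 (-2.16 to 0.69), the lowest but for that in the NFKB1 cluster. The 10 kb reads, 59 and 56, gave -0.58 (-1.13 to -0.03), the lowest of the 22 pairs. That interval includes the genome-wide median of -0.14, and 16.6% of all pairs had an interval below 0. A pair 151 kb further along, at chr14:103394793-103395028, had 8 reads in either list, and its 10 kb reads of 26 and 39 gave 0.08 (-0.67 to 0.86). The lower read number was seen at the first of these pairs, and the intervals of both overlap. Between them, chr14:103368171-103368300 had 6 reads in the control and no knockdown region within 26.6 kb.

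MAP3K14, the kinase NIK at the head of the alternative branch, had 2 pairs, and the intervals of their depth-scaled ratios all include 0. They are too wide to show equality. The control region of highest fold, chr17:43394346-43394922, spanned 577 bp against 558 bp in the knockdown. It had 16 stacked reads and its partner 22, with folds of 8.72 and 10.3. The log2 ratio was 0.04 (-0.96 to 1.06), and the 10 kb reads gave -0.05 (-0.43 to 0.33). At a gap of 68.8 kb, chr17:43325008-43325349 had 9 reads in the control and its partner 14, with 0.21 (-1.10 to 1.60) at the summit and -0.04 (-0.58 to 0.52) in the 10 kb. A control region of 94 bp with 5 reads, chr17:43325443-43325536, lay 137 bp from a knockdown region. It had the lowest fold, 4.11, of the control members without a partner.

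**Figure D4:**
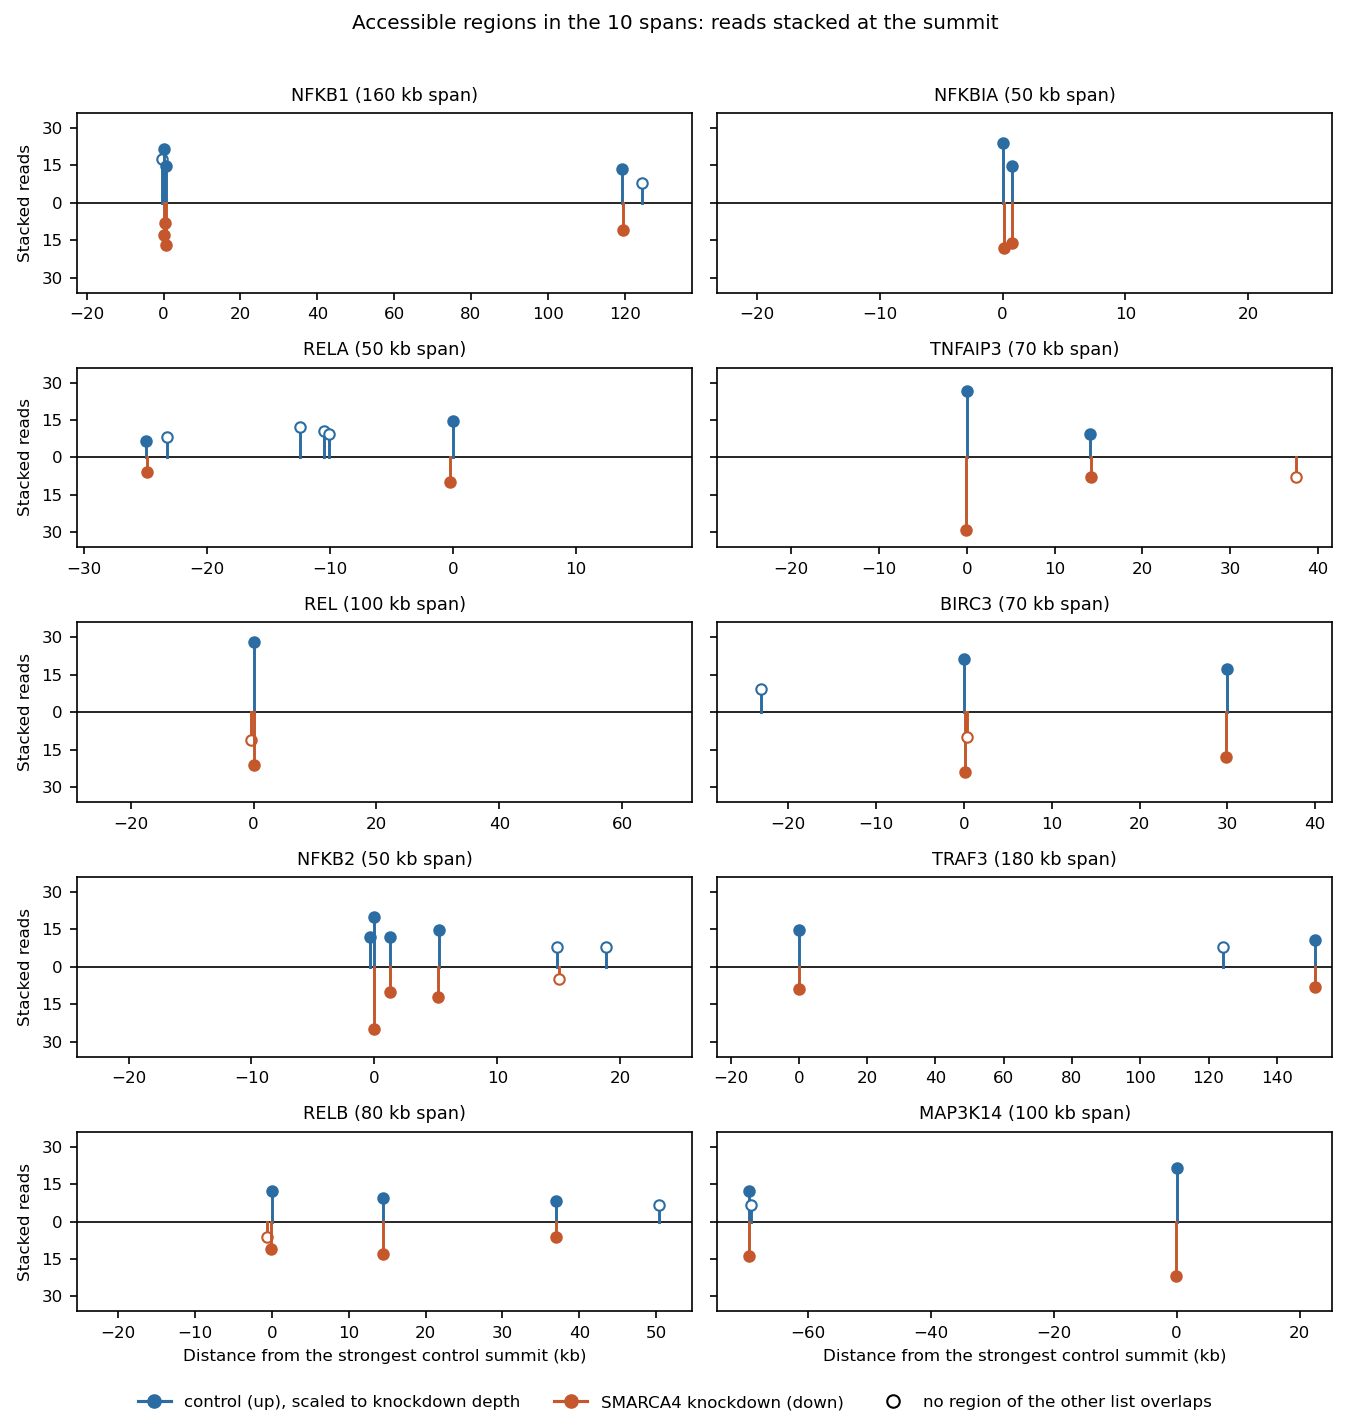
Accessible regions in the 10 spans, plotted by distance from the summit of the control region with the most stacked reads (x axis, kb) against reads stacked at the summit (y axis). Control regions point up and are multiplied by 1.34 to the knockdown depth, knockdown regions point down, and open circles have no overlapping region in the other list. The control region with the most stacked reads in each span has a partner below it.

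Regions without a partner were weaker in the median than those with one in both lists, but not each of them was weak. The 12 in the control had a median of 6 stacked reads and a fold of at most 6.67, against a median of 11 reads and a fold of up to 10.6 for the 23 with a partner. The 5 in the knockdown list had a median of 8 reads, against 13 with a partner, and a fold of at most 5.83. Of these 5, 4 lay within 500 bp of a control region, as did 24.0% of all knockdown regions without a partner. In the control list 3 of the 12 lay that close to a knockdown region, against 9.34% over the genome. All 12 control summits, scaled to knockdown depth, reached the lowest pileup that would have been called at the scaled background, as did 100% of such regions in the genome. After allowance for counting error in the control pileup only 2 still did, the flanking region of NFKB1 with 13 reads and the RELA region with 9, against 20.5% over the genome. The other 10 were not distinguishable, at this depth, from regions that missed the limit. Counting error in the knockdown library was not allowed for, so the 2 are not shown to differ from missed regions either. In the knockdown list 3 of 5 reached the control limit (87.3% over the genome), and 0 after the same allowance for their own pileups (8.13%). The knockdown of SMARCA4 itself and the B-cell identity of the cells were not checked, since a peak list without gene positions measures neither.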

How the data were processed

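Each library came with 1 list of 10 columns. The build hg19 and the tools BWA, MACS2 and bcl2fastq 2.17.1.14 come from the submitters' processing notes, without parameters. Peaks were called per library, as the peak names show. The deposited fold is a ratio of summit to background within a list, the deposited −log10 p and −log10 q are the caller's, and the deposited score is 10 times −log10 q without decimals. Shifts and read filters were not given in the sources used here.

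Chromosomes 1 to 22 and X were kept. Pileup and background were solved per peak from fold and p-value (Poisson tail), which gave back −log10 p within 4.2e-05. With peaks simulated from each list, 50831 of 50848 control and 39291 of 39291 knockdown pileups came back exactly. The extension lengths, 94 and 89 bp, are the shortest peaks, and backgrounds above the lowest (0.240 and 0.322 reads) were whole reads per 10 kb within 0.05 reads. The lowest pileups called were 3 and 4 reads. A pair is a control region with the partner of largest overlap. Expected shares used 10 bands of fold. Intervals are exact (Clopper-Pearson, conditional binomial for ratios) and cover counting error only, since amplified reads are not independent molecules. The limit of the other list is the lowest pileup reaching its weakest p-value at the scaled background. Regions named are, per span, those of highest fold, greatest width and without partner, and the extreme pairs; others were added to account for members. The members, motifs and lists were chosen with earlier results of these data known. Python 3.11.15, numpy 2.4.6, pandas 2.3.3 and scipy 1.17.1 were used. Other pathway genes and B-cell markers were not analysed here, for want of an hg19 annotation. Alternatives changed overlap rule, list limits, span edges, bands and scaling.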

Additional observations from a re-analysis of the deposited data

How the results depend on the processing

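The number of reads limits these results: member summits had 5 to 29 stacked reads, and no alternative narrows that. The share of control regions with a partner, 65.7%, ranged from 51.4% (reciprocal overlap of 50%) to 75.0% (lists of equal length), except that it was 81.8% with q-values of at most 1e-05, when the genome gave 66.8%. That limit tests fewer, stronger regions. The share of knockdown regions with a partner, 82.1%, became 96.4% (84.4% over the genome) when a control region within 500 bp counted, because 4 of the 5 regions without a partner lie that close to one. The median log2 pileup ratio of -0.16 became 0.26 without scaling for depth, a shift set by the depth factor of 1.34. It became 0.09 when centred on all pairs of the genome. It stayed between -0.22 and -0.13 under the other alternatives. The median of the 10 kb reads, -0.05, likewise became 0.09 when centred on all pairs and was -0.05 with 1 pair per 10 kb. These 10 kb alternatives were chosen after seeing the data. A direction for the members as a whole therefore depends on the scaling. Knockdown regions as a percentage of control regions, 80.0%, ranged from 72.7% to 100%, the latter with lists of equal length. With pileup bands the knockdown difference from the share given by strength, 4.68 points, was -0.0405. RELA had fewer knockdown than control regions under each of these settings, from 3 control and 1 knockdown region with q-values of at most 1e-05 to 8 and 3 with spans widened by 20 kb. Of 60 partner shares of single spans under alternatives, 55 stayed inside their interval. Each span held few control regions and its interval is wide, so this count does not show that the shares of single spans were stable. With 1 library in each group none could be left out. No paired analysis was possible because each group has 1 library.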
